A study of Mus musculus with 4 samples.

Results

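To follow the microtubule-associated and stathmin genes of the neuronal cytoskeleton in neural stem/progenitor cells (NSCs) that lack the chromatin remodeler Chd5, 10 genes were taken by name from the deposited RNA-seq table: Map1a, Map1b, Map2, Mapt, Stmn1, Stmn2, Stmn3, Stmn4, Dcx and Dpysl3. They fill 11 of its 18169 rows, since Dpysl3 has 2. The table holds TPM values (transcripts scaled to a fixed total per sample) for 4 cultures of C57BL/6 mice, 2 wild type (+/+) and 2 Chd5-/-, replicates 1 and 2 of each genotype. Each culture was grown from the periventricular region of the brain of an individual newborn, in medium with epidermal growth factor and fibroblast growth factor 2, and polyadenylated RNA was sequenced from stranded libraries. The kind of Chd5 deletion is not given in the labels. The growth protocol gives postnatal day 1, whereas the age entries of the labels list days 1 and 2 under +/+ but days 3 and 4 under Chd5-/-, and by these entries age and genotype cannot be told apart.

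Microtubules are polymers of tubulin whose ends grow and shrink. Structural microtubule-associated proteins (MAPs) bind along the polymer and stabilise it, with Map2 and Map1a best known from dendrites, Mapt (tau) from axons and Map1b from growing axons. Doublecortin (Dcx) binds microtubules in migrating young neurons, and the collapsin response mediator Dpysl3 (CRMP4) acts on the cytoskeleton of growth cones. Stathmins do the opposite of MAPs, holding free tubulin and promoting disassembly. Stmn1 is a soluble protein that is abundant in dividing progenitors, while Stmn2, Stmn3 and Stmn4 are membrane-anchored forms of neurons.

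The members are not a genomic cluster. In GRCm38 coordinates from GENCODE, Map2 is at chr1:66175273-66442583 (plus strand), Map1a at chr2:121289600-121310832 (plus), Map1b at chr13:99421446-99516540 (minus), Mapt at chr11:104231390-104332090 (plus) and Dcx at chrX:143855842-143933311 (minus). The stathmins are at chr4:134468320-134473843 (Stmn1, plus), chr3:8509360-8561606 (Stmn2, plus), chr2:181306459-181314500 (Stmn3, minus) and chr14:66344296-66361680 (Stmn4, plus). A RefSeq table of sequences before gene starts (GRCm38.p6) held 5 of the 10 genes. The 250 bases before the RefSeq start are shown for 3 MAP genes and for Dcx, one of the lowest members. Of the MAP genes, Map2 had far more mRNA than Map1a and Map1b, which were near each other. Each sequence runs 5′ to 3′ on the gene's strand, with every CG dinucleotide in capitals. The RefSeq start differs from the GENCODE gene boundary given above, so 56 bases of the Map2 window, 2 of the Map1a window and 92 of the Dcx window lie inside the GENCODE gene.

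Map2 (chr1:66175079-66175328, plus): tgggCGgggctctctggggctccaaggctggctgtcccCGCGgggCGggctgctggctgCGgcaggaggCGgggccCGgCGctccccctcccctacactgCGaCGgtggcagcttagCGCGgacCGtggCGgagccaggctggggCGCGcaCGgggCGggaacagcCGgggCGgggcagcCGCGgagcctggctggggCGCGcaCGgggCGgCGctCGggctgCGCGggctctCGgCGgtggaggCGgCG
Map1a (chr2:121289352-121289601, plus): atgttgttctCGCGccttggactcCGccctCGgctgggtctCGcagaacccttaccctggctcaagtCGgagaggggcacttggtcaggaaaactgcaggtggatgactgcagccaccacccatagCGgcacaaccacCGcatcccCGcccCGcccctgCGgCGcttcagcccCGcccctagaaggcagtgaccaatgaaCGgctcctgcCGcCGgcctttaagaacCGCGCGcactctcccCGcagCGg
Map1b (chr13:99516603-99516852, minus): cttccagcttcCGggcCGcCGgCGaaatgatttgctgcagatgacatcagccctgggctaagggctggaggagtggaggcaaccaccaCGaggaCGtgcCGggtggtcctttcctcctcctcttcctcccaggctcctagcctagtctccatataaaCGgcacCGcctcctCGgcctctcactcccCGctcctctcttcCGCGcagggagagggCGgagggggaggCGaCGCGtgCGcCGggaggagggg
Dcx (chrX:143933220-143933469, minus): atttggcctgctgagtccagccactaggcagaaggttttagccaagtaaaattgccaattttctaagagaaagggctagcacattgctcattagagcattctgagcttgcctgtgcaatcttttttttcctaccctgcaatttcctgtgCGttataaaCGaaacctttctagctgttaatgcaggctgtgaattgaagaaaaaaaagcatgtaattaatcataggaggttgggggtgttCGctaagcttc

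The Map2 window held 34 CG dinucleotides, more than 96.5% of 32851 windows of the same length over all genes in that table, whose median was 6. The Map1a and Map1b windows held 21 and 19, so they were rich in CG although their mRNAs were far less abundant than that of Map2 (values below). The Dcx window held 3, as did that of Stmn3, which is not shown. The letters TATAAA, searched on both strands, were present in the Map1b and Dcx windows and in 12.4% of all windows. These are descriptions of the reference sequence, and nothing in the table measures promoter activity.

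The libraries were not equally alike. Over the 12576 rows that averaged 1 TPM or more, TPM ranks correlated at 0.974 within +/+ but at 0.904 within Chd5-/-, no higher than across the genotypes (0.904 to 0.925). The targeted gene, Chd5, was at 0.39 and 0.37 TPM in the +/+ cultures, against 0.06 and 0.04 TPM in the Chd5-/- cultures. Read numbers cannot be recovered from TPM, which leaves the depth unknown and counting error out of reach. Of 10 NSC markers, some were abundant in every sample, with Vim between 1068 and 1502 TPM and Sox2 between 201 and 442 TPM. Fabp7 was at 5892 and 4316 TPM in the +/+ cultures, against 1939 and 3822 TPM in the Chd5-/- cultures. Slc1a3 was at 1871 and 1620 TPM and at 442 and 1006 TPM. Others were low or uneven. Prom1 ranged from 0.99 TPM in +/+ replicate 1 to 45.3 TPM in Chd5-/- replicate 1. Hes5 was at 1.16 TPM in Chd5-/- replicate 1 but 43.7 TPM in Chd5-/- replicate 2. The summed level of the 10 markers was 9826 and 8146.5 TPM in the +/+ cultures, against 3969 and 6898 TPM in the Chd5-/- cultures. Both Chd5-/- samples were below both +/+ samples in 4 of the 10 and above them in 1, against 13.0% and 46.3% of all rows.

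The neuronal label was checked against 15 neuron markers other than the members. Of these, 5 stayed under 1 TPM in every sample, namely Rbfox3, Nefl, Nefm, Snap25 and Neurod1. Tubb3, the neuronal tubulin, was at 0.33 and 0.29 TPM in the +/+ cultures, against 0.51 and 2.77 TPM in the Chd5-/- cultures. Rbfox3, which encodes the mature neuron antigen NeuN, was at 0.07 TPM in +/+ replicate 1 and listed at 0 in the other 3 samples. Other markers of the list were detected in every sample, with Gap43 between 28.0 and 148 TPM, Sox11 between 13.8 and 30.7 TPM, Elavl3 between 4.15 and 12.3 TPM and Syp between 2.46 and 8.10 TPM. The list thus held markers near 0 and markers at moderate levels. The summed level of the 15 markers was 166 and 109 TPM in the +/+ cultures, against 592 and 235 TPM in the Chd5-/- cultures, with 413 TPM of the highest sum from Cd24a, a surface protein of several progenitor types. In bulk RNA, fewer cells of a type and less RNA per cell cannot be told apart.

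Levels of the members spanned a wide range. Map2 stood first with a mean of 542 TPM over the 4 samples, rank 212 among all rows. Stmn1 followed with 306 TPM (rank 434), the higher Dpysl3 row with 162 TPM and Mapt with 68.2 TPM. The lower Dpysl3 row had 37.6 TPM, Stmn3 14.1, Map1a 8.22, Map1b 6.55, Stmn4 3.98, Dcx 1.06 and Stmn2 0.993 TPM.

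Neighbours in this order overlapped in their range over the 4 samples in each case. Within single samples, however, Map2 was above Stmn1, Stmn1 above the higher Dpysl3 row, that row above Mapt, the lower Dpysl3 row above Stmn3 and Stmn4 above Dcx in 4 of 4 samples. Map1b was above Stmn4 in only 2 of 4 samples, and the remaining neighbours kept their order in 3 of 4. Map2 supplied 85.2% to 89.6% of the summed TPM of the 4 structural MAP genes, and Stmn1 supplied 92.5% to 95.7% of that of the 4 stathmin genes.

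**Figure D1:**
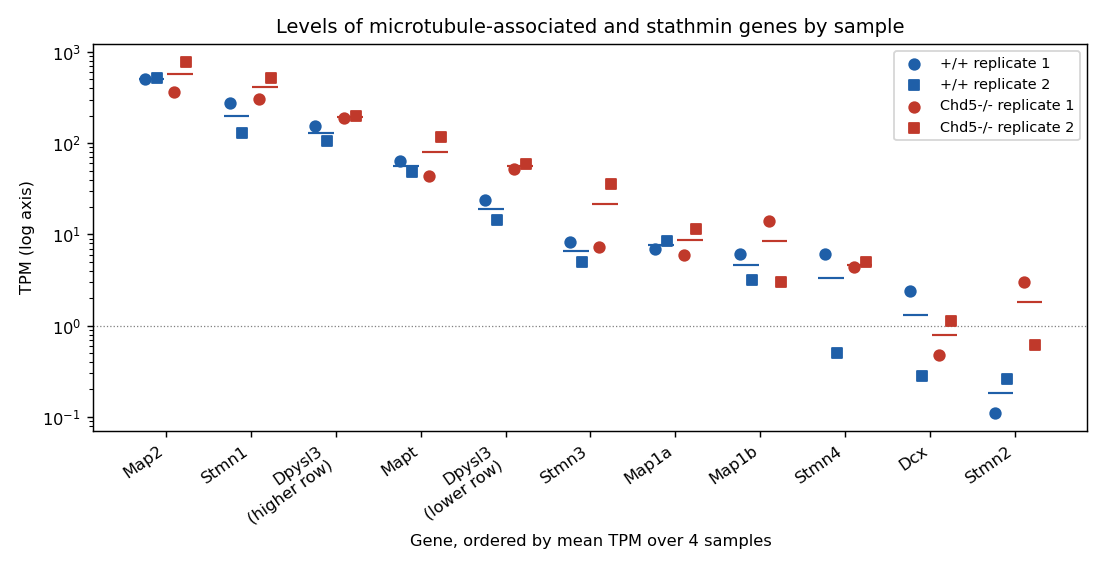
TPM of each gene row (log axis) in the 2 +/+ samples (blue) and 2 Chd5-/- samples (red), circles for replicate 1 and squares for replicate 2, with short lines at the genotype means and a dotted line at 1 TPM. Map2, Stmn1 and the higher Dpysl3 row were above 100 TPM in every sample, while Dcx and Stmn2 were at or under 2.98 TPM in every sample.

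The genotypes were compared by limma on log2(TPM + 1), a scale on which differences of rows with low TPM come out too small, with Benjamini-Hochberg adjustment over the 12576 rows. Each log2 difference below is the Chd5-/- mean minus the +/+ mean on that scale, with its standard error. Of the 10 member rows tested, 0 passed an adjusted p-value of 0.05 (smallest adjusted p = 0.120), against 0.0557% of all rows. At an unadjusted p-value under 0.05 there was 1 member row, the lower row of Dpysl3, which was higher in Chd5-/- NSCs, against 24.1% of all rows, 21.9% higher and 2.27% lower. That one-sided background held as deposited, with 2748 rows higher and 285 lower, and the counts were 1508 and 1311 under median-of-ratios scaling, 1103 and 1024 under quantile normalization, and 1856 and 818 when the most abundant rows were left out. Subtracting the GC and length trends gave 612 and 701. The median log2 difference of the member rows was 0.55, and that of all rows was 0.34. This shift of all rows depended on how the samples were scaled. It was 0.0052 when samples were scaled by the median of ratios, where the member median was 0.21. Quantile normalization gave -0.054 for all rows and 0.20 for the members, and leaving the 20 most abundant rows out of the scaling gave 0.13 and 0.34. Once trends with GC content and transcript length had been subtracted, the medians were -0.029 and 0.093. Leaving out 1 culture changed the number of member rows at an unadjusted p-value under 0.05. It was 3 without +/+ replicate 1 (12.7% of all rows), 1 without +/+ replicate 2 (6.39%), 5 without Chd5-/- replicate 1 (35.3%) and 2 without Chd5-/- replicate 2 (31.5%). At the adjusted threshold, 3 member rows passed without Chd5-/- replicate 1 (9.92% of all rows) and 0 without Chd5-/- replicate 2 (8.64%). With 2 samples against 2, an exact two-sided permutation of the labels for a single gene cannot go below p = 0.333.

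Among the structural MAPs, no difference between the genotypes exceeded the spread within them. Map2 was at 503 and 516 TPM in the +/+ cultures, against 366 and 785 TPM in the Chd5-/- cultures. The +/+ samples were nearly equal, and the Chd5-/- samples lay on either side of them, 1 lower and 1 higher. The log2 difference was 0.073 ± 0.40 (adjusted p = 0.927 by limma). The 2 Chd5-/- samples differed from each other by 1.10 on the same scale. Map2 gives rise to long and short protein forms, which a gene-level value cannot separate.

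Mapt was at 63.4 and 48.5 TPM in the +/+ cultures, against 43.8 and 117 TPM in the Chd5-/- cultures. As with Map2, Chd5-/- replicate 1 was the lowest of the 4 samples and Chd5-/- replicate 2 the highest, so the genotypes overlapped. For Mapt the log2 difference was 0.36 ± 0.49 (adjusted p = 0.672 by limma). Without Chd5-/- replicate 1 it was 1.06 (adjusted p = 0.0499), in a fit in which 9.92% of all rows passed, and without Chd5-/- replicate 2 it was -0.34.

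Map1a was at 6.99 and 8.46 TPM in the +/+ cultures, against 5.95 and 11.5 TPM in the Chd5-/- cultures. Here too the Chd5-/- samples enclosed the +/+ samples. The log2 difference was 0.099 ± 0.38 (adjusted p = 0.890 by limma), and its sign turned negative under every other scaling tried, as did that of Map2 (-0.30 to -0.16 for Map2 and -0.69 to -0.12 for Map1a). The ratio of Map2 to Map1a TPM was between 61.0 and 71.9 in the 4 samples, a narrow range beside the 2.15-fold difference of Map2 between the Chd5-/- samples. Both ends of that range were +/+ samples, in which Map2 was nearly equal, and the Chd5-/- samples were at 61.4 and 68.4. The ratio of Map2 to Mapt was between 6.70 and 10.6.

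Map1b went the other way. It was at 6.08 and 3.15 TPM in the +/+ cultures, against 13.97 and 3.02 TPM in the Chd5-/- cultures, so that Chd5-/- replicate 1 was the highest sample and replicate 2 the lowest. Its log2 difference was 0.52 ± 0.69 (adjusted p = 0.669 by limma). Without Chd5-/- replicate 1 it was -0.43, and without Chd5-/- replicate 2 it was 1.47 (adjusted p = 0.0999), so the direction rested on which Chd5-/- library was kept. The ratio of Map1b to Map1a, genes for related proteins that share light chain 3, was 2.35 in Chd5-/- replicate 1 and 0.263 in Chd5-/- replicate 2, against 0.870 and 0.372 in the +/+ samples.

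Of the stathmins, Stmn1 did not overlap between the genotypes. It was at 273 and 128 TPM in the +/+ cultures, against 307 and 514 TPM in the Chd5-/- cultures. Chd5-/- replicate 1 exceeded +/+ replicate 1 only slightly, and +/+ replicate 2 was the lowest sample. The log2 difference was 1.09 ± 0.46 (adjusted p = 0.225 by limma), about as large as the difference of 1.09 between the +/+ samples. It was 0.71 after median-of-ratios scaling and 0.49 with GC and length trends removed. Leaving out +/+ replicate 2 gave 0.54, and leaving out +/+ replicate 1 gave 1.63. The Stmn1 difference stayed above 0 under each of 18 alternatives, but not all of these could move it. Changing the minimum TPM, adding a replicate block, changing the eBayes option or summing rows of a name left its size as it was.

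Because Stmn1 is abundant in dividing cells, it was set beside 8 markers of cycling cells. Of these, 7 were lowest in +/+ replicate 2 and 6 were highest in Chd5-/- replicate 2, the samples in which Stmn1 was lowest and highest. Of all rows tested, 48.5% were lowest in +/+ replicate 2 and 39.9% highest in Chd5-/- replicate 2. Mki67, the Ki-67 proliferation antigen, was at 48.2 and 23.5 TPM in the +/+ cultures, against 43.0 and 80.1 TPM in the Chd5-/- cultures. Birc5, which acts in chromosome segregation, was at 30.8 and 17.8 TPM and at 38.2 and 55.4 TPM. Pcna, a clamp of the replication fork, did not follow this order and was lowest in Chd5-/- replicate 2 with 192 TPM. Mcm2 followed the order only in part, being lowest in +/+ replicate 2 but highest in Chd5-/- replicate 1 with 16.02 TPM. In Chd5-/- replicate 2 Mcm2 was at 8.49 TPM, below +/+ replicate 1. The summed level of the 8 markers was 728 and 512 TPM in the +/+ cultures, against 664 and 738 TPM in the Chd5-/- cultures. With limma, 0 of the 8 passed the adjusted threshold and 1, Birc5, had an unadjusted p-value under 0.05, against 24.1% of all rows. The part of cycling cells in the Stmn1 values was not tested.

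**Figure D2:**
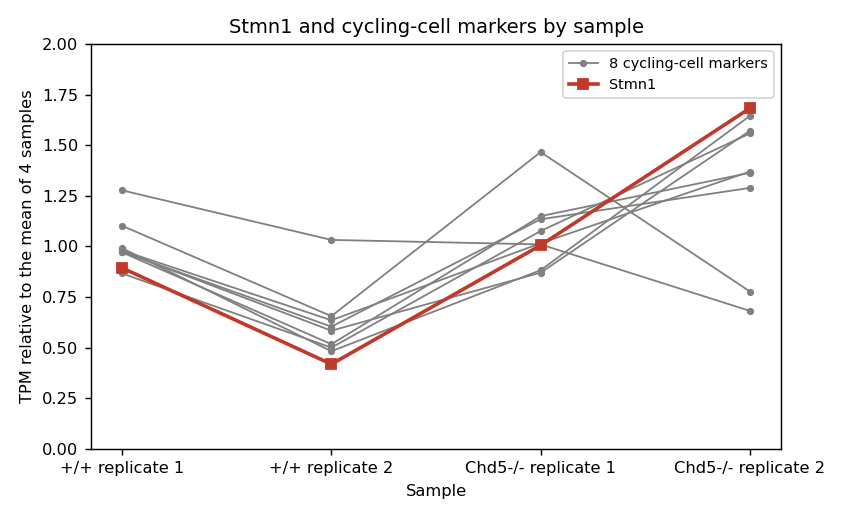
TPM of Stmn1 (red squares) and of 8 cycling-cell markers (grey) in each sample, divided by the gene's own mean over the 4 samples, with lines joining the values of a gene. Stmn1 and 7 of the 8 markers were lowest in +/+ replicate 2, and Stmn1 and 6 of the 8 were highest in Chd5-/- replicate 2.

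Stmn3 was at 8.32 and 4.94 TPM in the +/+ cultures, against 7.35 and 35.9 TPM in the Chd5-/- cultures. Chd5-/- replicate 2 stood far above the other 3 samples, and Chd5-/- replicate 1 lay between the +/+ values. The log2 difference was 1.24 ± 0.74 (adjusted p = 0.353 by limma). It was 2.31 without Chd5-/- replicate 1, 0.17 without Chd5-/- replicate 2, and 0.27 with GC and length trends removed. Its longest annotated transcript has a GC content of 57.3%, the highest of the members.

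Stmn4 was at 6.09 and 0.50 TPM in the +/+ cultures, against 4.37 and 4.95 TPM in the Chd5-/- cultures. The Chd5-/- samples were alike and fell between the +/+ samples, which differed 12.2-fold. The log2 difference of 0.79 ± 0.76 (adjusted p = 0.547 by limma) became -0.33 without +/+ replicate 2. Stmn2, long used as a marker of young neurons, was at 0.11 and 0.26 TPM in the +/+ cultures, against 2.98 and 0.62 TPM in the Chd5-/- cultures. These values did not overlap, but the mean of 0.993 TPM fell just under the minimum for testing. In a fit without a minimum the log2 difference of Stmn2 was 1.10 (unadjusted p = 0.0760, adjusted p = 0.305 by limma).

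Dcx was at 2.37 and 0.28 TPM in the +/+ cultures, against 0.48 and 1.12 TPM in the Chd5-/- cultures. Both Chd5-/- values lay between the +/+ values, and the gene passed the minimum of 1 TPM mainly through +/+ replicate 1. Dcx had a log2 difference of -0.23 ± 0.58 (adjusted p = 0.828 by limma), and it was 0.47 without +/+ replicate 1. Markers of the oligodendrocyte lineage were mixed. Olig2, a transcription factor of the lineage, was between 156 and 190.3 TPM in all 4 samples, and Olig1, Cspg4 and Mbp differed at most 1.32-fold between the +/+ samples. Pdgfra, a growth factor receptor of precursors, was at 13.0 and 1.84 TPM in the +/+ cultures, against 2.98 and 22.8 TPM in the Chd5-/- cultures. Of the 8 oligodendrocyte-lineage rows found, 7 were highest in Chd5-/- replicate 2, and Mag was at or under 0.14 TPM in every sample. Their summed level was 571 and 631 TPM in the +/+ cultures, against 504 and 928 TPM in the Chd5-/- cultures, most of it from Olig1 and Olig2. The part of these cells in the member values was not tested.

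Dpysl3, the collapsin response mediator, was similar in both Chd5-/- samples. Its higher row was at 154 and 106 TPM in the +/+ cultures, against 190.1 and 196 TPM in the Chd5-/- cultures, and its lower row at 23.6 and 14.4 TPM and at 52.6 and 59.8 TPM. In both rows the Chd5-/- samples were close together and above both +/+ samples. The log2 difference of the lower row was 1.55 ± 0.31 (unadjusted p = 0.00339, adjusted p = 0.120 by limma), and that of the higher row was 0.59 ± 0.26 (adjusted p = 0.245 by limma). Over the alternatives the lower row stayed between 1.16 and 1.89, and the higher row between 0.20 and 0.86. In the alternatives that left out no sample, adjusted p-values of the lower row by limma ran from 0.113 to 0.642. With both rows summed, the gene was at 178 and 121 TPM in the +/+ cultures, against 243 and 256 TPM in the Chd5-/- cultures, a log2 difference of 0.76 ± 0.27 (adjusted p = 0.179 by limma).

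The lower row took 13.2% and 11.95% of the summed Dpysl3 TPM in +/+ NSCs, against 21.7% and 23.3% in Chd5-/- NSCs. These shares did not overlap between the genotypes. They describe 2 rows of the same name, and the table does not say which transcripts each row stands for.

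In all, 3 of the 10 member rows tested did not overlap between the genotypes, Stmn1 and both Dpysl3 rows, all with the Chd5-/- samples higher. Among all rows, 59.4% did not overlap, 46.3% with both Chd5-/- samples above and 13.0% with both below. In 6 of the 10 rows the difference between the 2 Chd5-/- samples was larger than the difference between the genotypes, as it was in 47.0% of all rows. Chd5-/- replicate 2 was above replicate 1 in 9 of the 10 rows, Map1b being the exception, whereas 50.1% of all rows had that order. The order was not particular to the members. It was also found in 7 of 7 astrocyte markers, 8 of 10 NSC markers, 6 of 7 oligodendrocyte-lineage markers and 13 of 16 genes for proteins of microtubule ends. Other lists showed it less often, with 3 of 7 neuron markers, 5 of 11 other MAPs and 8 of 14 kinases of MAPs and dynein partners. The median log2 difference of Chd5-/- replicate 2 from replicate 1 was 0.63 over the member rows and 0.0021 over all rows. It was 1.84 over the astrocyte markers, 1.04 over the NSC markers, -0.22 over the neuron markers and -0.045 over the other MAPs.

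**Figure D3:**
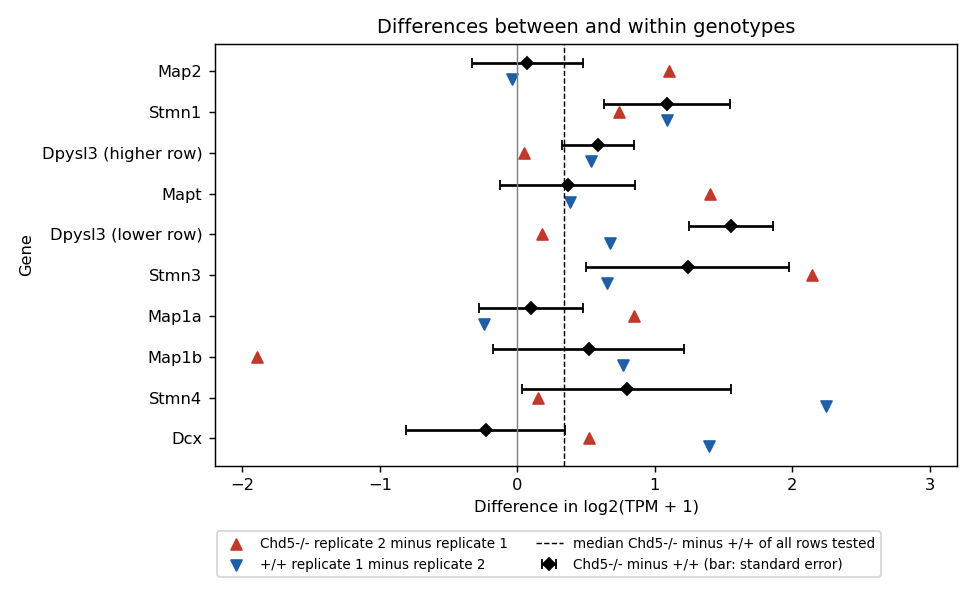
Differences in log2(TPM + 1) for the 10 member rows tested, as Chd5-/- minus +/+ with its standard error (black), Chd5-/- replicate 2 minus replicate 1 (red) and +/+ replicate 1 minus replicate 2 (blue), with a dashed line at the median genotype difference of all rows, 0.34. Both Dpysl3 rows had a genotype difference larger than either difference between replicates, while in Map2, Mapt, Map1a, Map1b, Stmn3 and Dcx the Chd5-/- samples differed more from each other than the genotypes did.

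Other scalings turned the sign of each structural MAP at least once. As deposited, 9 of the 10 rows had a positive log2 difference and Dcx a negative one. After median-of-ratios scaling Mapt was at -0.0028, and with GC and length trends removed it was at -0.20. Map1b was at -0.080 after quantile normalization. The differences of Stmn1, Stmn3, Stmn4 and both Dpysl3 rows stayed above 0 under every scaling tried, though that of Stmn4 was 0.017 with GC and length trends removed.

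**Figure D4:**
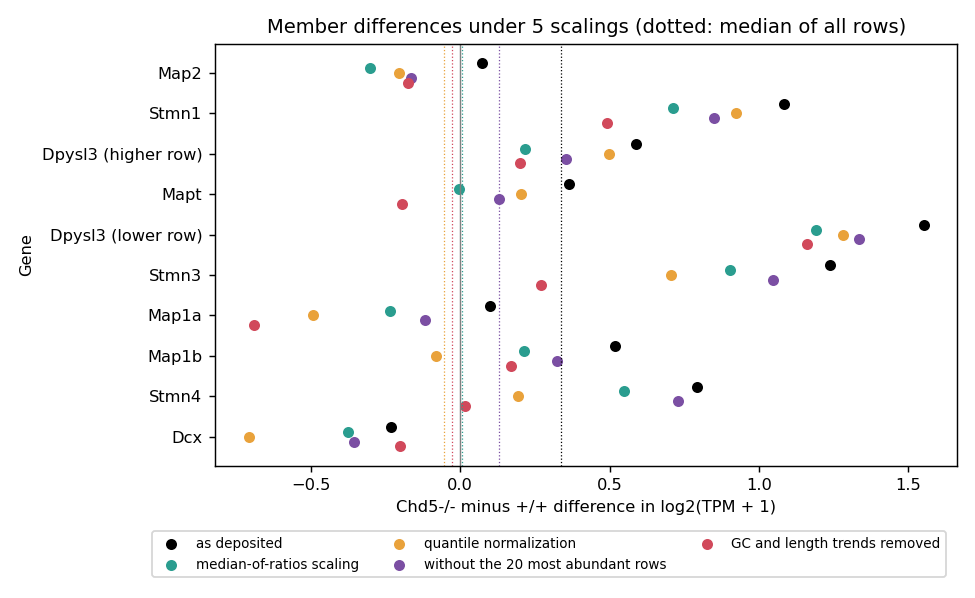
Chd5-/- minus +/+ difference in log2(TPM + 1) of the 10 member rows tested, under the deposited values (black) and 4 other scalings (colours), with dotted lines at the median of all rows under each. Map2 and Map1a were above 0 as deposited only, by 0.073 and 0.099, and the lower Dpysl3 row was between 1.16 and 1.55 throughout.

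The wider set of microtubule regulators was followed in a list of 64 other genes, of which 63 had a row and 54 were tested. With limma, 0 passed the adjusted threshold, 12 were higher and 2 lower at an unadjusted p-value under 0.05, and the median log2 difference was 0.27. Among all rows, 21.9% were higher and 2.27% lower at that threshold. The counts changed with the scaling, to 2 higher and 5 lower under median-of-ratios scaling and 3 and 3 under quantile normalization. They were 0 and 5 with GC and length trends subtracted, and 5 and 2 with a replicate block. The counts over all 12576 rows also changed, to 1508 and 1311 under median-of-ratios scaling and 1103 and 1024 under quantile normalization. They were 612 and 701, of 11700 rows, with the trends subtracted, and 2111 and 178 with the block. The median of the wider list was -0.073 under median-of-ratios scaling and -0.080 once the GC and length trends were subtracted. Among the 11 other MAPs tested, 2 were higher at an unadjusted p-value under 0.05, Map6 and Map7d1, a share below that of all rows, and neither was with GC and length trends subtracted. Map6, which protects microtubules from cold, was at 4.73 and 3.59 TPM in the +/+ cultures, against 8.83 and 8.53 TPM in the Chd5-/- cultures. Map4, the broadly expressed relative of Map2 and Mapt, was at 187 and 132 TPM and at 116 and 158 TPM. Map1s, a short relative of Map1a and Map1b, was at 0.50 and 0.37 TPM and at 1.11 and 1.69 TPM, too low to be tested.

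In the doublecortin family, Dclk1 was far more abundant than Dcx. Dclk1, a kinase with doublecortin domains found in radial glia as well as neurons, was at 409 and 387 TPM in the +/+ cultures, against 263 and 150 TPM in the Chd5-/- cultures. It was lower in both Chd5-/- samples, by a log2 difference of -0.9998 ± 0.33 (unadjusted p = 0.0265, adjusted p = 0.166 by limma), the most negative value among the 54 genes. Dclk2 was at 46.4 and 32.1 TPM and at 32.9 and 70.8 TPM, and Dclk3 and Dcdc2a were at or under 0.94 TPM in every sample.

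The other collapsin response mediator genes were at lower levels than Dpysl3. Dpysl2 (CRMP2), the best known of the family, was at 38.2 and 31.9 TPM in the +/+ cultures, against 23.7 and 62.7 TPM in the Chd5-/- cultures. Crmp1 was at 3.51 and 2.35 TPM and at 2.11 and 15.3 TPM, again with Chd5-/- replicate 1 lowest and replicate 2 highest. Dpysl4 was at 0.29 and 0.58 TPM and at 1.55 and 3.17 TPM (log2 difference 1.19, adjusted p = 0.177 by limma). Dpysl5 stayed at or under 1.30 TPM. With limma, 0 of the 3 tested passed the adjusted threshold and 1, Dpysl4, had an unadjusted p-value under 0.05, against 24.1% of all rows. Dpysl4 reached the minimum of 1 TPM for testing only through the Chd5-/- samples, where it was high, so this value is no support for a difference.

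The most positive log2 differences among the 54 genes were those of Katnal2 (1.19), Dpysl4, tested only through its Chd5-/- level, and Camsap1 (1.15). After Dclk1 the most negative were those of Mapk10 (-0.84), a neuronal JNK kinase, and Pafah1b1 (-0.39), the dynein regulator Lis1. The adjusted p-values of these genes by limma were all at or above 0.123. Chd5-/- replicate 2 was the highest sample for 35 of the 63 genes with a row and for 7 of the 11 member rows, against 39.9% of all rows tested.

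Among the 7 neuron markers that were tested, 0 passed the adjusted threshold. Unadjusted p-values under 0.05 by limma were found for Gap43 and Syt1, both higher, and for Elavl3 and Sox11, both lower. The shares of all rows at that threshold were 21.9% higher and 2.27% lower. Syt1 was low, at 0.73 TPM in both +/+ cultures, against 2.21 and 7.62 TPM in the Chd5-/- cultures. It thus reached the minimum of 1 TPM for testing only through the Chd5-/- samples, where it was high. Gap43, a growth cone protein, was at 47.7 and 28.0 TPM in the +/+ cultures, against 148 and 121 TPM in the Chd5-/- cultures. Sox11, a transcription factor of young neurons and progenitors, was at 30.7 and 27.1 TPM and at 16.2 and 13.8 TPM. Of 7 astrocyte markers, 4 were lowest in Chd5-/- replicate 1 and 5 highest in Chd5-/- replicate 2. Gfap was at 13.9 and 14.3 TPM in the +/+ cultures, against 0.71 and 19.7 TPM in the Chd5-/- cultures. Their summed level was 878 and 1189 TPM in the +/+ cultures, against 536 and 1429.8 TPM in the Chd5-/- cultures. Microglial markers with a row were at or under 0.17 TPM, and vascular and mesenchymal markers under 1 TPM in every sample apart from Dcn, at 4.17 TPM in Chd5-/- replicate 1.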

How the data were processed

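The RNA-seq data cover primary mouse NSC cultures of 2 genotypes (2 +/+, 2 Chd5-/-), grouped by title. The authors deposited TPM values per gene row in 1 table. Per the submitters' processing notes, Bowtie2 2.2.3, RSEM 1.2.20 and mm10 were used, in roles not given there. The annotation is not given in the sources used here. Every column was matched to a sample by its name. Of the total TPM, the 20 most abundant rows took 32.4% and 35.6% in +/+ but 21.6% and 22.8% in Chd5-/- NSCs, and TPM values of other rows depend on that share. Depth is unknown, so precision rests on 2 samples per genotype, and p-values measure the spread between these cultures.

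Values were transformed to log2(TPM + 1). Rows averaging 1 TPM or more over the 4 samples entered a limma fit (version 3.58.1, R 4.3.3; eBayes with a trend, two-sided). No count test was used. The scripts were tested on simulated data. GC content and length came from the longest GENCODE M21 transcript of each name, found for 93.0% of the rows tested, and loess trends (span 0.5) were subtracted from each sample. Settings varied in turn were the pseudocount (0.1 or 5), the minimum (none or 10 TPM), other scalings, a replicate block, eBayes without trend or robust, leaving out each sample, and, chosen after seeing the data, summing rows of a name and a crossed block. All members were named, with relatives of them, the 3 highest and lowest differences of the wider microtubule list, and markers. The members and lists were chosen with earlier results of these data known. Sequences came from RefSeq, and protein sequences were not used here. Tables and figures used Python 3.11.15, pandas 2.3.3, numpy 2.4.6 and matplotlib 3.10.9.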

Additional observations from a re-analysis of the deposited data

How the results depend on the processing

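The number of rows past the adjusted threshold over the whole table was 7. It was 4 with a pseudocount of 0.1, 0 without a minimum TPM (3089 higher and 384 lower at an unadjusted p-value under 0.05 by limma), 1 under quantile normalization and 3 once GC and length trends were subtracted. It ranged from 0 to 1247 with 1 sample left out, being 0 without either +/+ sample, 1086 without Chd5-/- replicate 2 and 1247 without Chd5-/- replicate 1. A replicate block gave 0 (2111 higher and 178 lower at an unadjusted p-value under 0.05), also with the trends removed in the same fit. The numbers do not pair the samples by any label, and deviations of same-numbered samples correlated at -0.15 over the rows tested. With crossed numbers, a pairing tried after seeing the data, the block gave 5 rows called. At an unadjusted p-value under 0.05 by limma there were then 3 member rows, against 2808 higher and 284 lower among all 12576 rows. With the block by replicate number, members called and other microtubule genes called stayed at 0. Other microtubule genes higher at an unadjusted p-value under 0.05 by limma went from 12 to 5, and all rows higher from 2748 to 2111. Member rows called ranged from 0 to 3 and those at an unadjusted p-value under 0.05 from 1 to 5 with 1 sample left out. The 3 called rows were Mapt, Stmn3 and the lower Dpysl3 row, without Chd5-/- replicate 1, where other microtubule genes called went from 0 to 6. The lone Chd5-/- sample was then assumed to vary like the +/+ samples. The cause was not tested.

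The following differences changed sign. After median-of-ratios scaling, Map2 was at -0.30, Map1a at -0.23 and Mapt at -0.0028, and the other microtubule genes had a median of -0.073. After quantile normalization, Map2 was at -0.20, Map1a at -0.49 and Map1b at -0.080, and all rows had a median of -0.054. Rescaled without the 20 most abundant rows, Map2 was at -0.16 and Map1a at -0.12. With GC and length trends removed, with or without the block, Map2 was at -0.17, Map1a at -0.69 and Mapt at -0.20, with medians of -0.080 for the other microtubule genes and -0.029 for all rows. With 1 sample left out, Map1a ranged from -0.32 to 0.52, Map2 from -0.48 to 0.62, Mapt from -0.34 to 1.06, Map1b from -0.43 to 1.47, Dcx from -0.93 to 0.47 and Stmn4 from -0.33 to 1.91. Stmn1, Stmn3 and both Dpysl3 rows kept their sign under every alternative. The minimum, the block and the eBayes option could not change a sign, since they leave the difference itself as it is.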
